A study of Mus musculus with 5 samples.

Results

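Collagen genes were followed in the dorsal lateral geniculate nucleus (dLGN) of newborn mice, the nucleus through which the thalamus passes retinal signals to the cortex. A gene counted as a collagen when a probe set of the array had a single gene symbol made of Col, a number, the letter a and a number. This gave 82 of 45037 probe sets and 42 of 18193 genes, and each gene was represented by its brightest probe set, by the mean of all arrays. The study compared 2 arrays from Sema6A knockout mice (Sema6A-/-) with 3 arrays from heterozygous controls, which themselves carried 1 disrupted copy of the gene; the labels do not say how the gene was disrupted. All mice were on a C57BL/6 background and were taken at postnatal day 0. Each array held RNA of a pool of dLGN tissue from pups of 1 genotype and several litters, so the p-values measure the spread between pools. No wild-type animals were among the samples used here.

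Collagens are secreted or membrane-bound proteins whose chains wind around each other into a rigid helix. The fibrillar types assemble into the tension-bearing fibrils of connective tissue, and in the brain they belong mainly to fibroblasts of the meninges and of vessel walls. Type IV forms the sheet-like network of basement membranes, which in the brain surround every vessel and underlie the pia. Other types bind to fibrils, form short networks, or are shed from the surface of neurons and epithelial cells.

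Promoters are shown for 2 pairs of collagen genes that are described below. Col4a1 and Col4a2 encode the chains of the common type IV molecule and are read in opposite directions from neighbouring starts, and Col1a2 and Col3a1 encode fibrillar chains whose values followed the same array. Each sequence is from RefSeq, build GRCm38.p6, runs 5′ to 3′ on the strand of the gene and covers 250 bases before to 50 bases after the annotated start. The Col4a1 window is chr8:11312777-11313076 on the minus strand and the Col4a2 window chr8:11312555-11312854 on the plus strand. The Col1a2 window is chr6:4505368-4505667 and the Col3a1 window chr1:45311288-45311587, both on the plus strand. Capitals mark matches on either strand to a CCAAT box (CCAAT), a GC box (GGGCGG) or a TATA box (TATAAA).
Col4a1: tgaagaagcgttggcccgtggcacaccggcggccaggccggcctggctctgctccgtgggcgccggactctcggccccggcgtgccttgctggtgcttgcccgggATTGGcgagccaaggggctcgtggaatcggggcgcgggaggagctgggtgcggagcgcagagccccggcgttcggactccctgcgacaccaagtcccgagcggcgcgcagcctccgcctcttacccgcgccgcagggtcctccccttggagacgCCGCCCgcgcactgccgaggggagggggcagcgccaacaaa
Col4a2: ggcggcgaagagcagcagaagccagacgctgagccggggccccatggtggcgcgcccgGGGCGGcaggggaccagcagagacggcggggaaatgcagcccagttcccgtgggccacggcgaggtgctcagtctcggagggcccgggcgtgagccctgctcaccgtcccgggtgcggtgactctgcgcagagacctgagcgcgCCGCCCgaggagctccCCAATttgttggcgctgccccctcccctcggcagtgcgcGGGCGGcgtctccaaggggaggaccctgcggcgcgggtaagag
Col1a2: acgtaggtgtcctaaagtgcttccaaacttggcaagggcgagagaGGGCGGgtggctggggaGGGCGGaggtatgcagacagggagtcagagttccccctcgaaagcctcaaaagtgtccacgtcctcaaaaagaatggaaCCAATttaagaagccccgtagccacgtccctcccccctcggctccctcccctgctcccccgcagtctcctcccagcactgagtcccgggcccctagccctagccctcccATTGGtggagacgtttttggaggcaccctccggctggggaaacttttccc
Col3a1: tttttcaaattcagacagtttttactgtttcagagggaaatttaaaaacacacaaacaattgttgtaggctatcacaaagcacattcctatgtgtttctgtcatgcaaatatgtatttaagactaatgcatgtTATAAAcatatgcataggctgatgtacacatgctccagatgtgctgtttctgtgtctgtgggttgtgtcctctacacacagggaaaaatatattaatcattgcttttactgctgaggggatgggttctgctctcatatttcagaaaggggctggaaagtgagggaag
The windows of Col4a1 and Col4a2 shared 78 bases, and the annotated starts lay so that the first 22 transcribed bases of each gene overlapped on opposite strands. The Col4a1 window held 1 CCAAT match and 1 GC box match and that of Col4a2 1 and 3. The GC box match of Col4a1 lay in the shared bases and is the same site as 1 of the 3 of Col4a2. The Col1a2 window held 2 of each, and that of Col3a1 held 1 TATA box match and neither of the others. Matches to the CCAAT box and the GC box can share up to 2 bases. Promoters were matched for 33 of the 42 genes, with 36 windows, and Col1a1 was not among them. A GC box match was present in 61.1% of these windows and in 35.7% of all 32851 windows of that length, a CCAAT match in 36.1% and 37.4%, and a TATA box match in 13.9% and 13.6%. The median GC content was 59.8% in the collagen windows and 52.7% in all windows.

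Several features of the arrays as a whole bear on these values. Sema6a itself read 7.81 and 7.85 on the log2 scale in the knockout and 10.47, 10.65 and 10.39 in the control, with a log2 fold change of -2.68 ± 0.12 (SE; limma adjusted p = 0.0236). Its other probe sets gave log2 fold changes of -2.27 and -2.52. Both missed an adjusted threshold of 0.05 (limma adjusted p = 0.0546 for each), so a large difference could miss it with these arrays. Array medians lay between 6.39 and 6.42. Markers of thalamic relay neurons read above the median of all probe sets, 6.41, for 10 of 10 genes. Knockout replicate 1 stood apart in GABAergic and prethalamic markers, whose median deviation from the control mean was 2.72 there and 0.18 in knockout replicate 2. In that array the level of Gapdh at its 3′ end was 2.34 above that at its 5′ end, against 0.96 in knockout replicate 2 and 0.77 to 1.33 in the controls. Control replicate 3 stood apart in some fibroblast genes, as described with the fibrillar collagens. It was the highest array for 9 of 20 fibroblast markers.

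No collagen gene passed the test between genotypes. Of all 45037 probe sets tested, 33 (0.0733%) had a limma adjusted p under 0.05, and 0 of the 42 collagens did, with adjusted p-values from 0.252 to 0.985. At an unadjusted p under 0.05 in limma, 2 of the 42 collagens were higher in the knockout, Col5a3 and Col18a1, and 4 were lower, Col1a1, Col4a6, Col6a5 and Col26a1. Among all 18193 genes the shares at that threshold were 6.9% higher and 4.9% lower. Both knockout arrays lay above every control for 9 collagens, or 21.4% of them, against 15.8% of all genes. They lay below every control for 6 collagens, or 14.3%, against 13.9% of all genes. The median log2 fold change of the collagens was -0.01, with 21 genes on each side of 0, and that of all genes was 0.01.

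**Figure D1:**
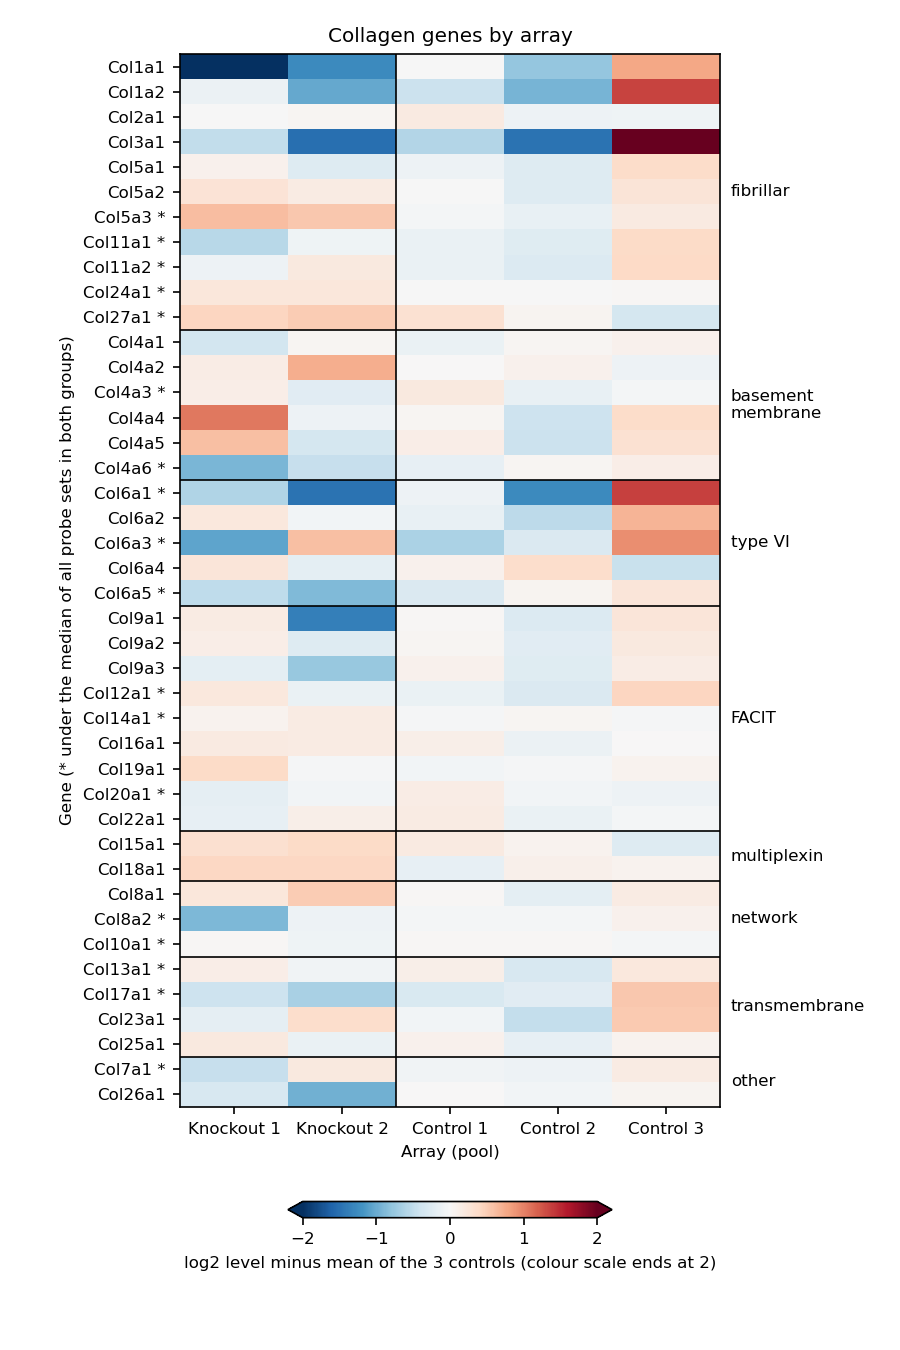
Log2 level of each of the 42 collagen genes (rows, grouped by class) in each of the 5 arrays (columns), minus the mean of the 3 controls; red is higher and blue lower, and the colour scale ends at 2. Control replicate 3 is red for Col1a1, Col1a2, Col3a1, Col6a1, Col6a2 and Col6a3. Both knockout replicates are blue for Col1a1, replicate 1 more deeply.

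Of the 42 genes, 24 reached the median level of all probe sets in the mean of at least 1 group and 18 did not. The 18 dimmer genes had log2 fold changes from -1.04 (Col6a1) to 0.58 (Col5a3), and differences near the background of the array are compressed by the normalisation. In a bulk sample, fewer cells of a type and less RNA per cell cannot be told apart.

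Among the fibrillar collagens, Col1a1, the gene of the alpha-1 chain of type I collagen, differed most between the groups. Col1a1 read 7.17 and 8.52 in the knockout and 9.79, 9.03 and 10.57 in the control. Both knockout pools lay below every control pool, and the spread within each group was wide, at 7.85 ± 0.96 (SD, n = 2) and 9.80 ± 0.77 (SD, n = 3). The log2 fold change was -1.95 ± 0.57 (SE), a 3.86-fold lower level with a 95% interval from -3.38 to -0.52, and it missed the adjusted threshold (limma adjusted p = 0.333). Without knockout replicate 1 the log2 fold change was -1.27, and without control replicate 3 it was -1.56. The other probe set of Col1a1 read 6.25 and 5.99 in the knockout and 6.95, 6.06 and 8.98 in the control, so that the groups overlapped there, with a log2 fold change of -1.21 ± 0.83 (SE; limma adjusted p = 0.640).

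Col1a2, the gene of the alpha-2 chain of the same molecule, had another order of arrays than the brightest probe set of Col1a1. It read 8.22 and 7.31 in the knockout and 7.91, 7.41 and 9.70 in the control. Knockout replicate 1, the lowest array at the brightest probe set of Col1a1, was the second highest for Col1a2. At the other probe set of Col1a1, knockout replicate 2 was lowest and control replicate 3 highest, as they were for Col1a2. The log2 fold change was -0.57 ± 0.71 (SE; limma adjusted p = 0.802), and without control replicate 3 it was 0.11. A second probe set of Col1a2 had the same order of arrays at its top, with 7.24 in knockout replicate 1 and 8.39 in control replicate 3.

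Col3a1, the gene of type III collagen, which forms mixed fibrils with type I in soft tissue and vessel walls, varied most within a group. It read 7.73 and 6.71 in the knockout and 7.64, 6.74 and 10.29 in the control. Control replicate 3 lay 2.56 above the next array, and the other 4 arrays lay within the same range in both groups. The log2 fold change of -1.002 ± 1.06 (SE; limma adjusted p = 0.762) became 0.03 without that array. The other probe set of Col3a1 gave 5.93 and 4.16 against 4.25, 3.87 and 7.01, with control replicate 3 again highest.

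The remaining fibrillar genes varied less. Col5a1 and Col5a2 encode type V chains, which lie inside type I fibrils and set their diameter. Col5a1 read 8.35 and 8.003 in the knockout and 8.15, 8.003 and 8.63 in the control (log2 fold change -0.09 ± 0.23 SE, 95% interval -0.65 to 0.47). Its second probe set had both knockout arrays, 7.97 and 7.46, above the controls at 7.05, 7.23 and 7.34, with a log2 fold change of 0.51 (limma adjusted p = 0.417), so the probe sets of Col5a1 disagreed in sign. Col5a2 read 7.94 and 7.83 against 7.65, 7.41 and 7.93, and the groups overlapped.

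Col5a3, the third type V chain, was the collagen with the smallest p. It read 5.07 and 4.995 in the knockout and 4.42, 4.31 and 4.63 in the control, with both knockout pools above every control pool. Its log2 fold change was 0.58 ± 0.14 (SE), 1.49-fold, and it missed the threshold (limma adjusted p = 0.252). These levels lay under the median of all probe sets, and the other probe set of Col5a3 differed by -0.01. Col2a1, the fibrillar collagen of cartilage, read 6.93 and 6.98 against 7.13, 6.85 and 6.85, a log2 fold change of 0.02 with a 95% interval from -0.32 to 0.35. Col11a1, Col11a2, Col24a1 and Col27a1, all under the median level, had log2 fold changes between -0.32 and 0.47. Col27a1 and Col24a1 had both knockout arrays above every control, and both knockout arrays of Col24a1 read 2.80.

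Control replicate 3 was the highest array for 21 of the 42 collagens, or 50%, against 24.5% of all genes. The gap to the next array exceeded 1 on the log2 scale for 14 of 18193 genes (0.077%), of which 3 were collagens, Col3a1, Col1a2 and Col6a1, and 4 others were in the list of meningeal and other fibroblast markers that held no collagen. Knockout replicate 1 held 214 genes (1.18%) by such a gap and knockout replicate 2 held 58 (0.32%). Control replicates 1 and 2 held 5 and 1, and 0 collagens were among the genes of these 4 arrays. The gap of 1 and the count for control replicate 3 were chosen after the values were seen. Dcn, a proteoglycan that binds fibrils, read 7.01 in control replicate 3 and 4.47 to 4.99 in the other arrays. Ptgds, a prostaglandin synthase of the meninges, read 9.03 there, 7.12 and 6.72 in the other controls and 5.88 and 5.91 in the knockout. Lum, a second fibril proteoglycan, and Aldh1a2, a retinoic acid synthesis gene of the meninges, read 4.21 and 4.67 there and at most 3.17 and 3.07 elsewhere.

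Over the whole list of 20 fibroblast markers, 9 were highest in control replicate 3. The mean log2 level of the list was 5.97 and 6.10 in the knockout and 5.91, 6.08 and 6.44 in the control. That of knockout replicate 2 includes 13.09 from Crabp2. The median deviation from the control mean was -0.22 and -0.26 in the knockout and -0.13, -0.08 and 0.15 in the control. The median log2 fold change was -0.13, and ranged from -0.26 to 0.03 with 1 array left out. Both knockout arrays lay below every control for 25% of the list and above for 10%, against 13.9% and 15.8% of all genes. In both group means 12 of the 20 markers stayed under the median level of all probe sets. At an unadjusted p under 0.05 in limma, 1 marker was higher in the knockout and 2 were lower, against 6.9% and 4.9% of all genes, and 0 passed the adjusted threshold. Bgn, a small proteoglycan, was the higher one (0.57), while Nupr1 (-0.60) and Ptgds (-1.73) were the lower ones. Igf2, which also reached the median level, differed by 0.22 and was highest in knockout replicate 2. The markers did not share 1 order of arrays, since Crabp2, a carrier of retinoic acid, was highest in knockout replicate 2, at 13.09, with the other arrays between 7.69 and 10.11. The part of these cells in the values of Col1a1, Col1a2, Col3a1 and Col6a1 was not tested.

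**Figure D2:**
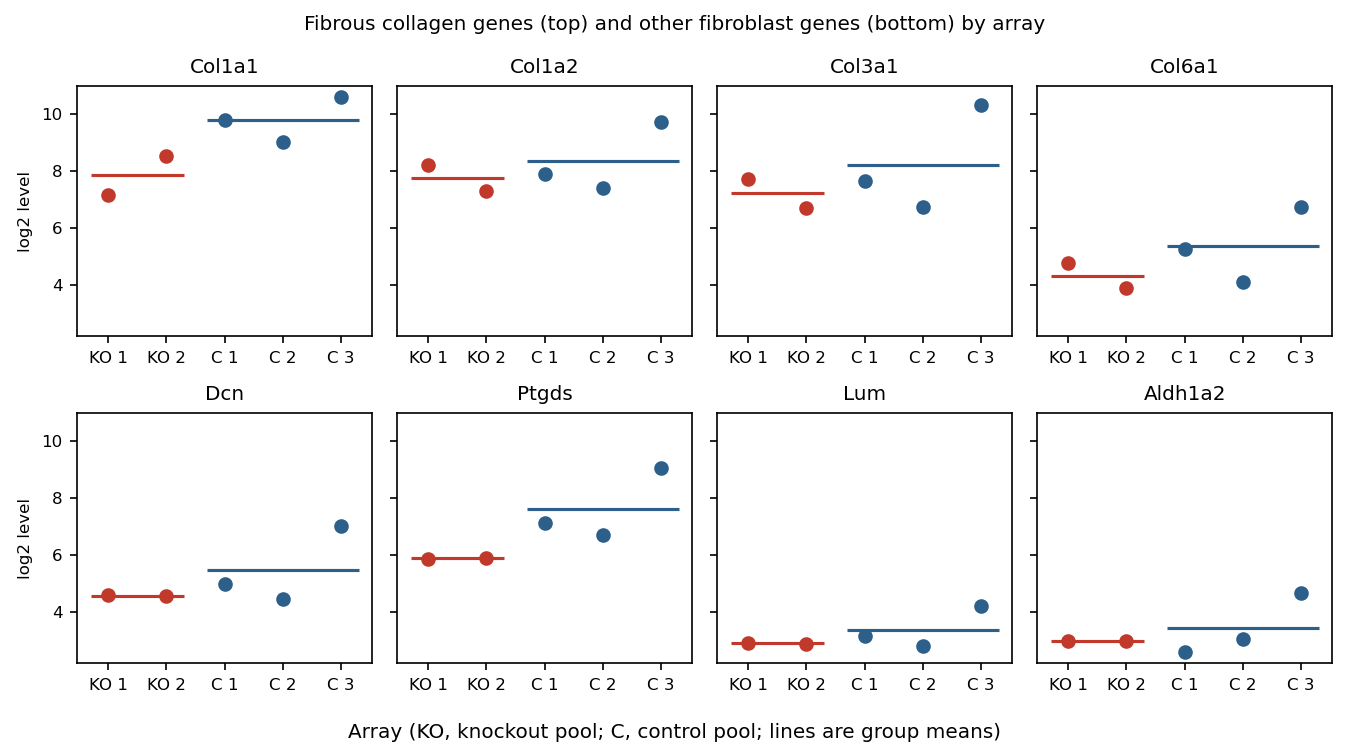
Log2 level (vertical axis) in each of the 2 knockout pools (KO, red) and 3 control pools (C, blue), with group means as lines, for Col1a1, Col1a2, Col3a1 and Col6a1 in the top row and the fibroblast markers Dcn, Ptgds, Lum and Aldh1a2 in the bottom row; levels of different genes are not comparable. Control replicate 3 is the highest point in all 8 panels. All genes but Col1a1 are among those that it held more than 1 above every other array, so its place follows from their choice. Of the whole list of 20 fibroblast markers, 9 were highest in that array. Only in the panels of Col1a1 and Ptgds do both knockout points lie under every control point.

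Of the 6 basement membrane collagens, 3 had a positive and 3 a negative log2 fold change. Col4a1 read 10.94 and 11.35 in the knockout and 11.18, 11.36 and 11.40 in the control. The groups overlapped, and the log2 fold change of -0.17 had a 95% interval from -0.58 to 0.24 (limma adjusted p = 0.741). Its second probe set gave 0.00, with an interval from -0.39 to 0.40. Col4a2 read 11.24 and 11.83 against 11.11, 11.19 and 10.99. Both knockout arrays lay above every control, mostly through knockout replicate 2, and the log2 fold change of 0.44 ± 0.20 (SE) missed the threshold (limma adjusted p = 0.491). Without knockout replicate 2 it was 0.15, and without knockout replicate 1 it was 0.73. The estimates of the genes that share the promoter region printed above had opposite signs over all arrays, but without knockout replicate 1 that of Col4a1 was 0.036, and both were positive. The difference between Col4a1 and Col4a2 was not tested.

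Col4a3, Col4a4, Col4a5 and Col4a6 encode the chains of the more restricted type IV networks and also lie in neighbouring pairs. Col4a4 read 7.73 and 6.58 in the knockout and 6.72, 6.27 and 7.05 in the control. Col4a5 read 7.36 and 6.40 against 6.89, 6.33 and 7.06. Both genes were highest in knockout replicate 1, the array that was also high in GABAergic markers and in the 3′ minus 5′ difference of Gapdh, and the part of either in these values was not tested. Without that array the log2 fold change of Col4a4 went from 0.47 to -0.10 and that of Col4a5 from 0.12 to -0.36.

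Col4a6 lay lower in the knockout, with 3.70 and 4.15 against 4.44, 4.65 and 4.74 in the control. Its log2 fold change was -0.69 ± 0.18 (SE; limma adjusted p = 0.288) at a level under the median of all probe sets. At its other probe set the groups overlapped, with 3.92 and 3.96 against 4.17, 3.83 and 5.59. Col4a3, also dim, differed by -0.05.

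The classes were then set side by side. The median log2 fold change was 0.02 over the 11 fibrillar genes and 0.04 over the 6 type IV genes, a difference of -0.02. Per array, the median deviation of fibrillar genes from the control mean was -0.01 and 0.04 in the knockout and -0.04, -0.25 and 0.37 in the control. For type IV genes it was 0.14 and -0.16 in the knockout and 0.03, -0.06 and 0.11 in the control. The knockout values of the fibrillar class thus lay inside the range of the controls, and those of the type IV class lay on either side of it. Over the members at or above the median level the medians were -0.33 for 6 fibrillar genes and 0.28 for 4 type IV genes, and with control replicate 3 also left out they were 0.06 and 0.33.

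**Figure D3:**
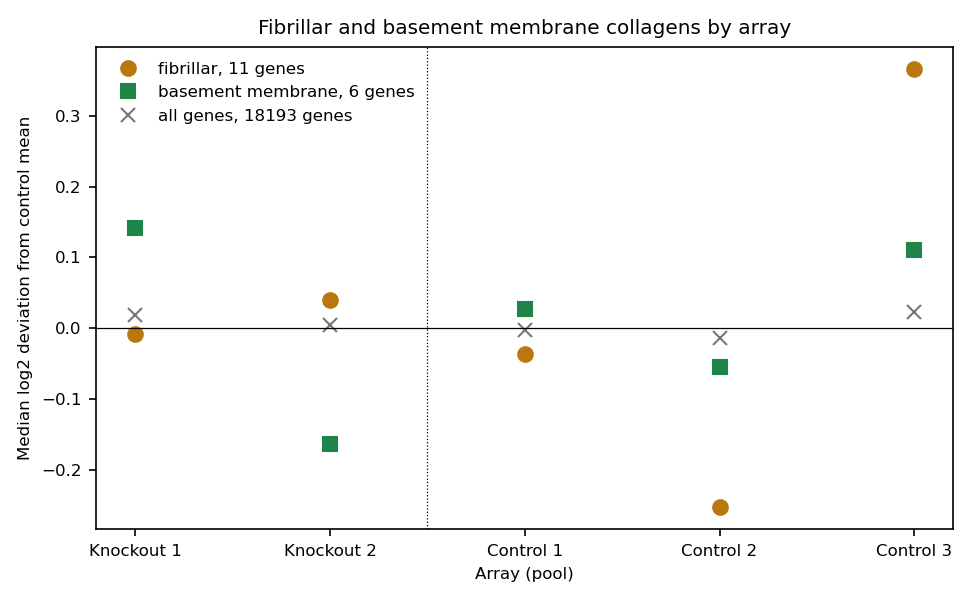
Median log2 deviation from the mean of the 3 controls (vertical axis) in each array (horizontal axis) for 11 fibrillar collagens (circles), 6 basement membrane collagens (squares) and all 18193 genes (crosses). The fibrillar points range from -0.25 in control replicate 2 to 0.37 in control replicate 3, and the knockout arrays lie at -0.01 and 0.04. These spreads are not like for like, since they cover 3 controls, measured from their own mean, and 2 knockout arrays.

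Type VI collagen forms beaded filaments at the border between basement membrane and interstitial matrix. Col6a1, which is named here although it stayed under the median level, read 4.78 and 3.90 in the knockout and 5.27, 4.11 and 6.75 in the control, with control replicate 3 highest by 1.47. Col6a2, its neighbour and partner chain, read 8.28 and 8.01 against 7.91, 7.55 and 8.74, again highest in that array, with a log2 fold change of 0.08 ± 0.36 (SE). Col6a3, the third chain, read 4.70 and 6.36 against 5.12, 5.46 and 6.68. Col6a4 read 7.36 and 6.92 against 7.21, 7.48 and 6.67, a log2 fold change of 0.02. Col6a5 was lower in the knockout, at 4.35 and 3.98 against 4.57, 4.92 and 5.10 (log2 fold change -0.69 ± 0.21 SE, limma adjusted p = 0.336), at a dim probe set.

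The multiplexins, collagens of vascular and epithelial basement membranes whose fragments include endostatin, were a class of only 2 genes. Both knockout arrays exceeded every control for each of these 2, as they did for 15.8% of all genes. Col18a1 read 8.42 in both knockout arrays and 7.84, 8.12 and 8.08 in the control. The log2 fold change was 0.41 ± 0.13 (SE), 1.33-fold, with a 95% interval from 0.09 to 0.73, and missed the threshold (limma adjusted p = 0.358). The second probe set of Col18a1 separated the groups in the same direction, with 7.10 and 7.03 against 6.69, 6.75 and 6.86. Leaving out any 1 array kept the log2 fold change of Col18a1 between 0.32 and 0.46.

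Col15a1, the other multiplexin, read 7.27 and 7.32 in the knockout and 7.13, 7.01 and 6.69 in the control, a log2 fold change of 0.35 ± 0.16 (SE; limma adjusted p = 0.502), and of 0.22 without control replicate 3. Of 14 endothelial markers, 4 were higher at an unadjusted p under 0.05 in limma and 0 lower, where 6.9% of all genes were higher and 4.9% lower. Their median log2 fold change was 0.15, and it ranged from -0.0056 without control replicate 1 to 0.31 without knockout replicate 1. The mean log2 level of that list was 8.50 and 8.65 in the knockout and 8.14, 8.58 and 8.48 in the control, and 11 of its 14 genes reached the median level. Among pericyte and smooth muscle markers 1 of 12 was higher and 0 lower, with a median of 0.06 that ranged from -0.049 to 0.17 with 1 array left out. The part of vascular cells in the values of Col18a1 and Col15a1 was not tested. Col8a1, a short-chain network collagen of vessel walls, read 7.65 and 7.93 against 7.45, 7.22 and 7.58. The groups lay apart there, with a log2 fold change of 0.37 ± 0.16 (SE; limma adjusted p = 0.477). They overlapped at its other probe sets, both under the median level, with log2 fold changes of 0.12 and -0.04.

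Type IX collagen sits on the surface of fibrils and is best known from cartilage and the vitreous. Its genes were lowest in knockout replicate 2. Col9a1 read 10.12 and 8.57 in the knockout and 9.97, 9.67 and 10.19 in the control. The groups overlapped, since knockout replicate 1 lay among the controls. The log2 fold change of -0.60 ± 0.46 (SE; limma adjusted p = 0.672) was -1.37 without knockout replicate 1 and 0.17 without knockout replicate 2. At the other probe set of Col9a1 both knockout arrays, 6.40 and 5.32, lay below the controls at 6.57, 6.73 and 6.47. The log2 fold change there was -0.73 (limma adjusted p = 0.487). Col9a3 read 9.26 and 8.70 against 9.55, 9.21 and 9.61 (log2 fold change -0.48 ± 0.22 SE, limma adjusted p = 0.499). Its log2 fold change was -0.20 without knockout replicate 2 and -0.76 without knockout replicate 1. Col9a2 read 7.91 and 7.52 against 7.82, 7.56 and 7.98. Knockout replicate 2 was the lowest array for each of these 3 genes.

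The other fibril-associated collagens had log2 fold changes between -0.12 and 0.18. Col19a1, which is expressed by neurons in the brain, read 7.15 and 6.75 in the knockout and 6.72, 6.76 and 6.85 in the control (log2 fold change 0.18 ± 0.15 SE). Its other probe sets gave -0.36 and -0.45, so they disagreed in sign. Col22a1 read 7.94 and 8.22 against 8.27, 7.98 and 8.08, a log2 fold change of -0.03 with a 95% interval from -0.40 to 0.35. Col16a1 read 7.33 and 7.31 against 7.26, 7.03 and 7.15, with both knockout arrays above the controls by a small margin (0.17 ± 0.12 SE, limma adjusted p = 0.638). Col12a1, Col14a1 and Col20a1 stayed under the median level and had log2 fold changes between -0.12 and 0.11.

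Membrane-bound collagens include Col25a1, a neuronal type whose shed part binds amyloid. Col25a1 read 10.72 and 10.39 in the knockout and 10.62, 10.37 and 10.60 in the control, a log2 fold change of 0.03 with a 95% interval from -0.36 to 0.41. The pools of both genotypes thus overlapped at that probe set. The other probe set of Col25a1, under the median level, read 5.76 and 5.76 in the knockout. The controls there lay above, at 5.98, 5.80 and 6.09, with a log2 fold change of -0.19 (limma adjusted p = 0.628). Col23a1 read 6.79 and 7.32 against 6.92, 6.49 and 7.50, and the groups overlapped. Col13a1 and Col17a1, under the median level, had log2 fold changes of 0.03 and -0.53.

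Col26a1, a secreted protein with short collagen repeats, was lower in the knockout. It read 11.20 and 10.56 in the knockout and 11.53, 11.46 and 11.58 in the control, with both knockout pools below every control. The control pools lay close together, at 11.52 ± 0.06 (SD, n = 3), and the knockout pools further apart, at 10.88 ± 0.45 (SD, n = 2). The log2 fold change was -0.64 ± 0.20 (SE), 1.56-fold, and missed the threshold (limma adjusted p = 0.359). It was -0.33 without knockout replicate 2 and -0.96 without knockout replicate 1. Its other probe set, far under the median level, gave -0.12. Col7a1, Col8a2 and Col10a1 were dim, with log2 fold changes from -0.50 to -0.03.

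**Figure D4:**
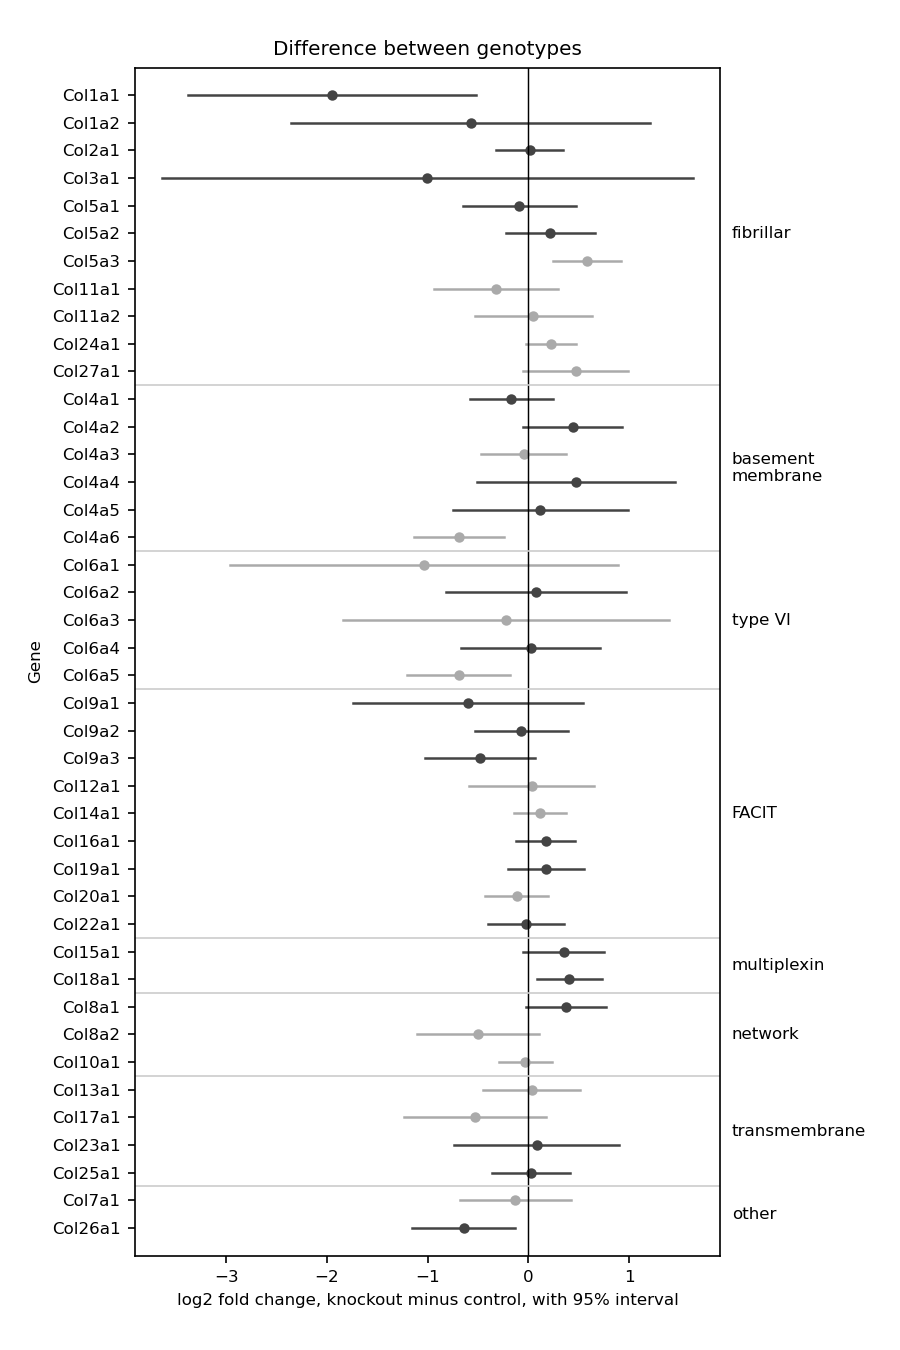
Log2 fold change, knockout minus control (points), with 95% intervals from limma (lines), for the 42 collagen genes grouped by class; dark points reach the median level of all probe sets in at least 1 group mean and grey points do not. The intervals of Col1a1, Col4a6, Col6a5 and Col26a1 lie below 0 and those of Col5a3 and Col18a1 above it, without adjustment for the number of genes.

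Of the 42 genes, 27 had more than 1 probe set. Among their 40 further probe sets, 25 had the sign of the probe set that stood for the gene and 15 had the opposite sign. Those of Col1a1, Col18a1, Col4a6, Col9a1 and Col26a1 kept the sign. That of Col5a3, the collagen with the smallest p, did not, at -0.01, and Col6a5 had only 1 probe set.

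Genes that make, bind and degrade collagen were taken from lists. Of 29 genes of chain modification, folding, processing and cross-linking, 0 passed the adjusted threshold and 0 had an unadjusted p under 0.05 in limma, where 6.9% of all genes were higher and 4.9% lower, and their median log2 fold change was 0.00. Plod3, a lysyl hydroxylase and glycosyltransferase of collagen chains, read 8.30 and 8.55 in the knockout and 8.66, 8.74 and 8.96 in the control. Plod1, another lysyl hydroxylase, differed by 0.53 through knockout replicate 1, at 8.93 against 8.11 in knockout replicate 2 and 7.97 to 8.03 in the controls. Ppib, a proline isomerase of the endoplasmic reticulum, differed by -0.33 and Adamts3, a procollagen peptidase, by 0.40.

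Of 10 collagen receptor genes, 2 were higher at an unadjusted p under 0.05 in limma and 0 were lower, against 6.9% and 4.9% of all genes, and 0 passed the adjusted threshold. Lair1, an inhibitory collagen receptor of leukocytes, read 7.89 and 7.37 in the knockout and 6.74, 6.49 and 6.49 in the control. Its log2 fold change was 1.05 ± 0.19 (SE; limma adjusted p = 0.172). In the same arrays 13 of 14 microglia and macrophage markers were higher at an unadjusted p under 0.05 in limma, against 6.9% of all genes, with a mean log2 level of 8.52 and 8.38 in the knockout and 6.94, 6.81 and 6.89 in the control, and their part in the Lair1 value was not tested. Adgrg1, a receptor for type III collagen that is needed for an intact pial border, read 9.76 and 9.79 against 9.56, 9.23 and 9.35 (log2 fold change 0.40 ± 0.13 SE, limma adjusted p = 0.384). Ddr2, a collagen-activated tyrosine kinase receptor, differed by 0.15 and Mrc2, an uptake receptor, by 0.08.

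Of 10 genes of collagen breakdown and its inhibitors, 0 had an unadjusted p under 0.05 in limma, against 6.9% of all genes higher and 4.9% lower. Their median was 0.15, and it was -0.054 without knockout replicate 1 and 0.30 without knockout replicate 2. The metalloproteinase inhibitor genes Timp2, Timp4 and Timp3 differed by 0.23, 0.20 and 0.22, and Mmp9, a gelatinase, by 0.26. Of 16 other genes of basement membranes, 1 was higher at that threshold and 0 lower, against 6.9% and 4.9% of all genes, with a median of 0.03. Fn1, which encodes fibronectin, was the higher one, at 8.90 and 9.06 against 8.22, 8.57 and 8.70 (log2 fold change 0.49 ± 0.17 SE, limma adjusted p = 0.404). Sparc, a collagen-binding protein, differed by 0.22, Hspg2, the gene of perlecan, by -0.13 and Lama2, a laminin chain, by 0.22.

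Of 14 genes of fibril-associated and elastic matrix proteins, 2 were higher at that threshold and 0 were lower, against 6.9% and 4.9% of all genes. In this list 0 passed the adjusted threshold, and its median was 0.07. Eln, the gene of elastin, read 7.39 and 8.84 in the knockout and 7.06, 6.95 and 7.07 in the control, so that most of its log2 fold change of 1.09 ± 0.41 (SE; limma adjusted p = 0.429) came from knockout replicate 2. Bgn, which is in the fibroblast list too, read 9.90 and 9.45 against 9.0, 9.34 and 8.97 (limma adjusted p = 0.383). Tnc, a matrix protein of developing glia, differed by -0.24 and Thbs2, a thrombospondin, by 0.20.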

How the data were processed

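RNA was taken from dLGN dissected from vibratome sections of 200 µm, and 20 ng was amplified, biotin-labelled and hybridised to Affymetrix arrays, per the labels' protocols. The values deposited by the authors are on the log2 scale, 1 per probe set, from RMA, per the submitters' processing notes. RMA corrects background, equalises array distributions and summarises probes, so shared shifts are removed and low differences compressed. Its version is not given in the sources used here. After 64 array control probe sets were left out, 45037 entered a linear model of genotype alone in limma 3.58.1 (R 4.3.3; lmFit, then eBayes), with two-sided p-values adjusted over all of them by Benjamini-Hochberg. Intervals are 95% from that fit. The fit was tested on simulated data. The number of arrays limits the precision. All 42 collagens kept their symbol in RefSeq. Every collagen is accounted for: those reaching the median level, or with an unadjusted p under 0.05, get values for each array, and up to 4 genes of each pathway list are named. The members and lists were chosen with earlier results of these data known. No list was tested as a set.
Dcn, Lum, Aldh1a2 and Crabp2 fell outside that rule and were picked on their values. Col6a1 and Col6a3 also fell outside it, though their values are given for each array. Alternatives were a replicate block, 2 further scalings, a filter on dim probe sets, other eBayes priors, array weights, each array left out and a gene's probe sets averaged.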

Additional observations from a re-analysis of the deposited data

How the results depend on the processing

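No collagen passed the adjusted threshold in limma under any alternative run. The 33 probe sets past it over all genes became 0 with the replicate block, 97 without dim probe sets, 100 with an intensity trend, 19 with array weights and 0 to 0 with each array left out. Collagens with an unadjusted p under 0.05 numbered 1 higher and 2 lower without dim probe sets (from 2 and 4), and 4 higher with the trend. Leaving out dim probe sets, or only the dim members, gave medians of -0.33 (fibrillar) and 0.28 (type IV), a difference of -0.61. With control replicate 3 also left out, which was chosen after seeing the data, the type IV median was 0.33. With each array left out, the median over all 6 type IV genes, 0.04 on all arrays, ranged from -0.16 to 0.14. Replicate numbers are shared by 2 pairs of pools only, and nothing in the labels ties same-numbered pools. The correlation of their deviations was 0.15 and 0.21. The replicate block gives control replicate 3 its own term, so its estimates equal those without that array. Under it the sign turned for Col1a2 (0.11), Col2a1 (-0.030), Col3a1 (0.032), Col5a1 (0.10), Col6a4 (-0.20) and Col9a2 (0.028). It also turned for Col6a4 with array weights (-0.050). With a gene's probe sets averaged it turned for Col5a1 (0.23), Col6a4 (-0.019), Col19a1 (-0.21) and Col25a1 (-0.082). With each array left out, log2 fold changes ranged from -1.04 to 0.11 (Col1a2), -0.032 to 0.11 (Col2a1), -1.74 to 0.032 (Col3a1), -0.26 to 0.10 (Col5a1), -0.37 to 0.036 (Col4a1), -0.10 to 1.05 (Col4a4), -0.36 to 0.60 (Col4a5), -0.18 to 0.42 (Col6a2), -0.20 to 0.24 (Col6a4), -1.37 to 0.17 (Col9a1), -0.26 to 0.13 (Col9a2), -0.024 to 0.38 (Col19a1), -0.17 to 0.11 (Col22a1), -0.18 to 0.35 (Col23a1) and -0.14 to 0.19 (Col25a1). Without a change of sign, they ranged from 0.09 to 0.35 (Col5a2), 0.23 to 0.51 (Col8a1) and 0.11 to 0.23 (Col16a1). Col1a1, Col4a6, Col5a3, Col6a5, Col18a1 and Col26a1 kept their sign in every alternative that gave a value. The cause of these differences was not tested.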

Other observations

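Of the 14 genes that control replicate 3 held more than 1 above every other array, 7 were neither collagens nor in the fibroblast marker list. Pf4 read 7.33 there and 4.22 to 5.36 elsewhere, Scara5 read 5.29 against at most 4.06, and Postn, a matrix protein of connective tissue, read 5.69 against at most 4.67. Hnrnpl read 8.31 there and at most 7.30 elsewhere. The other 3, Mcpt2, Vmn1r51 and Mael, stayed under 5 on every array.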
